A study of Homo sapiens with 12 samples.

Results

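The genes described here are 36 established transcriptional targets of p53, chosen by name and grouped by what they are known to do in cell cycle arrest, apoptosis, DNA repair, and metabolism with stress signalling. Of the 36, 34 were among the 13310 genes of the expression table, with 9 in arrest, 12 in apoptosis, 5 in repair and 8 in metabolism; AEN and TRIAP1 were not analysed here. The values come from RNA sequencing of polyadenylated RNA of H9, a widely used human embryonic stem cell line, labelled wild type in all 12 libraries. Undifferentiated cells kept in mTeSR on Matrigel (UNDIF), cultures after neural differentiation (NEUR), and cultures differentiated in DMSO (DMSO_NEUR) or in FT671, an inhibitor of the deubiquitinating enzyme USP7 (FT671_NEUR), gave 3 libraries each. In the differentiation, the SMAD inhibitors A83-10 and Dorsomorphine were given first, and then a medium for neural stem cells that contained EGF and bFGF. The labels do not give the dose or duration of FT671, and the treatment field of the DMSO samples reads undifferentiated where their titles read neural; the titles were followed. All libraries come from 1 cell line, and nothing in the labels tells if the replicates of a group grew separately, so the p-values rest on a spread between libraries that may be technical.

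p53 is a transcription factor that is kept low by the ubiquitin ligase MDM2 and accumulates when cells are stressed. It binds a pair of similar half-sites in DNA near its targets, which then slow the cell cycle through the inhibitor p21, trigger cell death through BCL2-family proteins and death receptors, repair DNA and change metabolism. USP7 removes ubiquitin from MDM2 and from p53 itself, so its inhibition is used to raise p53 activity, and in human embryonic stem cells p53 is known to induce p21 when differentiation starts.

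The promoters of the targets were searched for the p53 consensus, which is 2 half-sites in a row with at most 1 base between them, and the best matches are printed because they show how near the starts of these genes such a sequence lies. RefSeq windows of 300 bases, 250 before and 50 after an annotated start (GRCh38.p14), were found for 27 of the 34 genes, as 39 windows since some genes have several starts. With the central C and G of each half-site intact and at most 3 mismatches over both half-sites, 5 of 39 windows held a match, against 2.38% of the 35116 promoter windows in the reference, and the consensus reads alike on both strands. The windows belonged to DDB2, FAS, FDXR, GDF15 and SESN1, and 4 of them are shown 5′ to 3′ along the gene, with the match in capitals. The DDB2 stretch (chr11:47214904-47215003, plus strand) holds a match with 0 mismatches at bases 6 to 26 after the start, with 1 base between its half-sites. The FAS stretch (chr10:88991269-88991368, plus strand) holds one with 2 mismatches, both in its later half-site, beginning 122 bases before the start, which is the most downstream of the FAS starts searched. The FDXR stretch (chr17:74872965-74873064, minus strand) holds one with 3 mismatches, all in its first half-site, and the match ends 2 bases before the start. The GDF15 stretch (chr19:18386178-18386207, plus strand) holds one with 3 mismatches at bases 29 to 48 after the start.
DDB2: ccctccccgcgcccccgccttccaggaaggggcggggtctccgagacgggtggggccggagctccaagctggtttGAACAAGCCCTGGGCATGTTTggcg
FAS: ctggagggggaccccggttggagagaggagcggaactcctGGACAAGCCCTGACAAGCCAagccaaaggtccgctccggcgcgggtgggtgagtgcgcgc
FDXR: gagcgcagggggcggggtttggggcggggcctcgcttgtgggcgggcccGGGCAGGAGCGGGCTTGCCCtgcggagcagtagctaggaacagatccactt
GDF15: acctgcacAGCCATGCCCGGGCAAGAACtc
At least 1 exact half-site stood in 5 of the 39 windows, against 6.63% of all windows. A match is a description of the letters and not a bound site, and no match says only that these letters are not in these windows. The median GC share was 65.0% in the targets' windows and 58.67% in all windows.

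Reads in the table's genes numbered 15906471 to 17271155 per library, and log2 values of replicates correlated with Pearson r of 0.988 to 0.995 across genes, which are not independent replicates. NEUR replicate 3 stood apart. Its deviation from the other NEUR libraries correlated with the length of the longest transcript of a gene with a Spearman rho of −0.56 over 13110 genes and −0.818 over the 34 targets, whose values in it lay between 0.532 below and 0.51 above the others on the log2 scale. Marker genes were read as sums over a list and as calls of its members. The summed normalized counts of 7 pluripotency genes were 60876 to 62550 in UNDIF, 10445 to 11280 in NEUR, 10631 to 11969 in DMSO_NEUR and 4311 to 5432 in FT671_NEUR, with POU5F1 at 2459 ± 172, 0.978 ± 0.978, 1.62 ± 1.48 and 4.23 ± 2.1. All 7 were lower in NEUR than in UNDIF. With FT671 the lower sum came with LIN28A, at 8861 ± 626 with DMSO and 1097 ± 152 with FT671, and SOX2, but 4 of the 7 were called higher and 2 lower, and L1TD1 went from 74.2 ± 16.4 to 2498 ± 405 and ZFP42 from 113 ± 11.5 to 848 ± 37.4. The other higher genes, POU5F1 and TDGF1, stayed at a few counts. TDGF1 had 0.648 ± 1.12 with DMSO and 3.17 ± 1.06 with FT671, against 681 ± 52.7 in UNDIF. With library totals as the scale, 3 of the 7 were called higher. The sums of 6 neural progenitor genes were 22135 to 26165, 42227 to 43712, 45297 to 46628 and 5726 to 6052, with the neural factor PAX6 at 3985 ± 249.9 in DMSO_NEUR and 13.0 ± 4.42 in FT671_NEUR. SOX2 is in this list and in the pluripotency list, so the 2 readings are not separate. It had 9263 ± 1307 counts in UNDIF, 1335 ± 64.0 in NEUR, 1585 ± 134 in DMSO_NEUR and 13.0 ± 3.96 in FT671_NEUR. The sums of 8 surface ectoderm and trophoblast genes were 8816 to 9208, 14804 to 17447, 10900 to 11874 and 64773 to 72160, and all 8 were higher with FT671 than with DMSO. In NEUR against UNDIF, 3 of these 8 were higher and 5 lower, and KRT18 made up most of the larger sum, at 1099 ± 62.6 in UNDIF and 10879 ± 1357 in NEUR. The 3 mesenchyme genes COL1A1, COL3A1 and ACTA2 summed to 5136 to 6078 in UNDIF, 14165 to 15964 in NEUR, 9201 to 14555 in DMSO_NEUR and 25126 to 27904 in FT671_NEUR. All 3 were higher in NEUR than in UNDIF, and with FT671 COL1A1 was higher and the other two lower. The FT671_NEUR libraries therefore go against the neural part of their label: SOX3 and NR2F1 were at 1.05 ± 1.05 and 0.351 ± 0.608 counts there, although NES remained at 5852 ± 165. The 3 neuron genes measured summed to at most 420 in any library, but moved in both directions. From UNDIF to NEUR, DCX fell from 345 ± 21.7 to 39.3 ± 16.1 counts. STMN2 rose from 37.8 ± 11.0 to 215 ± 20.3 and SNAP25 from 10.0 ± 1.92 to 99.7 ± 11.3. All 3 were called lower with FT671 than with DMSO, with sums of 18.0 to 25.3 in FT671_NEUR. In bulk RNA, a change in the share of a cell type and a change in RNA per cell cannot be told apart.

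Values below are normalized read counts, listed in the order of replicates 1 to 3, and fold changes are on log2 of that count plus 1, ± their standard error, tested with limma over all genes with Benjamini-Hochberg adjustment. Genes with an adjusted p under 0.05 are called higher or lower. The table has no gene lengths, so levels are compared within a gene and not between genes.

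Nearly all of the p53 targets rose in neural differentiation. In NEUR against UNDIF, 32 of the 34 were higher, CCNG1 was lower and TM7SF3 was not called. The background is wide, since 40.4% of all genes were called higher and 41.6% lower, but the median log2 fold change was 0.998 over the targets and −0.029 over all genes. At the scale of library totals, 28 targets were higher and 1 lower, beside 4455 of all genes higher and 6281 lower. A rise of at least 2-fold was called for 16 targets and for 15.4% of all genes, and a fall of that size for CCNG1 and for 16.5% of all genes. The 3 NEUR libraries lay entirely above the UNDIF libraries for 31 targets, and the share of all genes that did so was not counted. Of the markers, 5 of 6 neural progenitor genes and all 3 mesenchyme genes were higher in the same libraries, and their part in the targets' values was not tested.

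With FT671 the targets moved in both directions. In FT671_NEUR against DMSO_NEUR, 17 were higher, 8 were lower and 9 were not called, with 40.2% of all genes called higher and 39.7% lower, and the median log2 fold change was 0.18 over the targets and 0.010 over all genes. With library totals as the scale the split was 15 higher and 11 lower, beside 4583 of all genes higher and 5893 lower at that scale. CDKN1A, PLK3, PERP, TM7SF3 and GDF15 rose by at least 2-fold, as 16.4% of all genes did, and ORAI3 fell by at least 2-fold, as 14.4% of all genes did. By role, 6 of 9 arrest genes rose and 1 fell, 4 of 12 apoptosis genes rose and 4 fell, 3 of 5 repair genes rose and 2 fell, and 4 of 8 metabolism genes rose and 1 fell. These counts were not tested against each other.

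**Figure D1:**
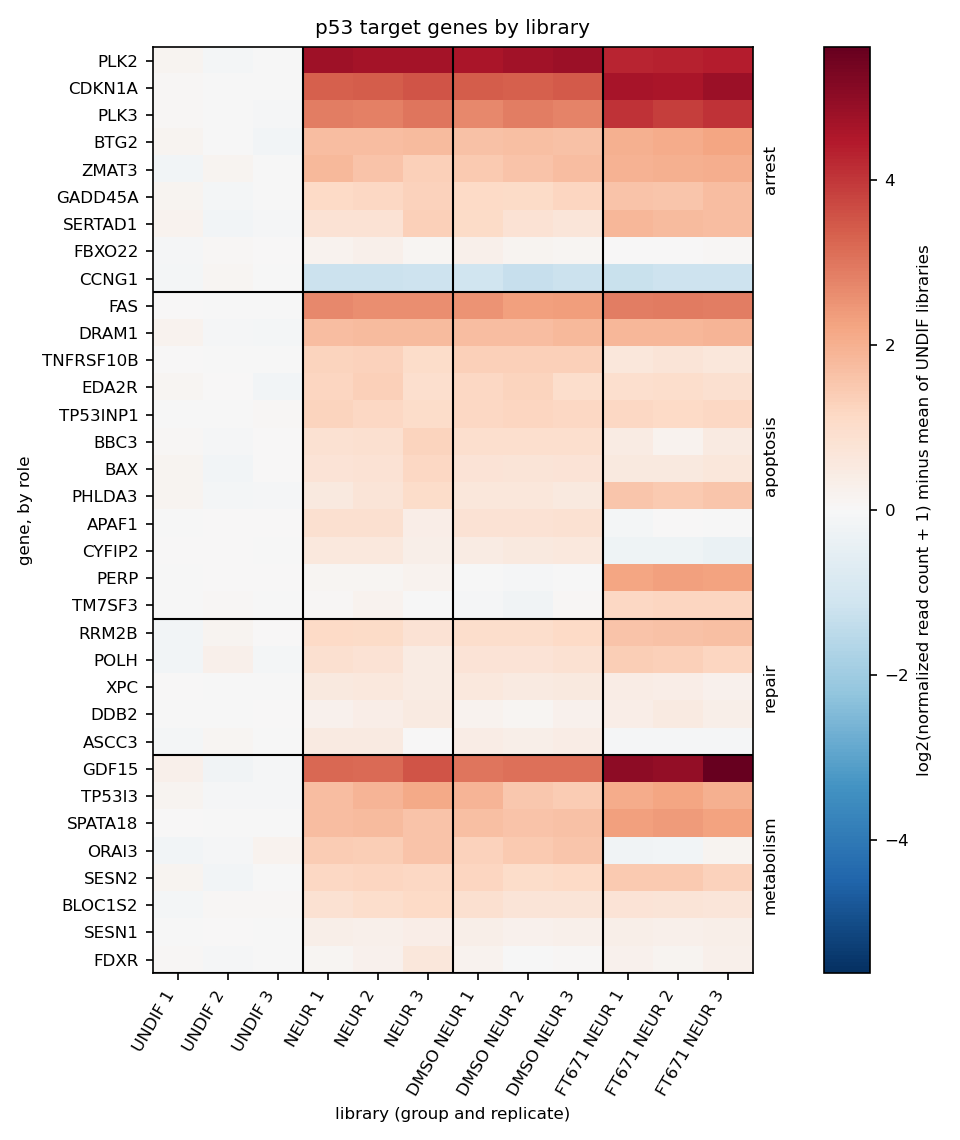
Each row is a p53 target and each column a library, grouped by role and by culture. Colour gives log2 of the normalized read count plus 1 minus the mean of the 3 UNDIF libraries. The NEUR, DMSO_NEUR and FT671_NEUR columns are red for most genes, CCNG1 is blue in all of them, and APAF1, ASCC3, CYFIP2 and ORAI3 are pale or blue with FT671.

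Among the arrest genes, the kinase and p21 genes rose most in neural differentiation. CDKN1A, which encodes the cyclin-dependent kinase inhibitor p21, had 641, 595 and 604 counts in the UNDIF libraries and 6260.1, 6559 and 7049 in NEUR. Every NEUR library was about an order of magnitude above UNDIF (log2 fold change 3.43 ± 0.07, adjusted p = 1.5e-16), which is 10.8-fold. PLK2, a stress-induced polo-like kinase, had 363, 299 and 322 counts in UNDIF and 8882, 8233 and 8267 in NEUR, the widest gap among the targets (log2 fold change 4.69 ± 0.08, adjusted p = 1.96e-17). Its relative PLK3, another stress-induced polo-like kinase, went from 79.4, 74.3 and 71.6 to 561, 541 and 613 (log2 fold change 2.91 ± 0.09, adjusted p = 2.45e-14). BTG2, an antiproliferative gene that acts on mRNA decay and transcription, had 414, 375 and 341 counts in UNDIF and 1257, 1256 and 1302 in NEUR, so its groups were far apart as well (log2 fold change 1.76 ± 0.08, adjusted p = 2.14e-12). GADD45A, ZMAT3, SERTAD1 and FBXO22 were also higher, with log2 fold changes of 1.20, 1.60, 0.99 and 0.21. FBXO22, a ubiquitin ligase subunit, was the weakest of them, and its call was lost without UNDIF replicate 1 (adjusted p = 0.066), without NEUR replicate 2 (adjusted p = 0.0709) and with library totals as the scale (adjusted p = 0.408).

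CCNG1, the gene of cyclin G1, moved the other way. Its counts were 10086, 11697 and 10644 in UNDIF and 4692, 4717 and 4811 in NEUR, with no overlap (log2 fold change −1.19 ± 0.07, adjusted p = 5.42e-11). DMSO_NEUR libraries held 4922, 4433 and 4624 counts and FT671_NEUR libraries 4545, 4815 and 4873, which overlap, and the difference with FT671 had a 95% interval of −0.12 to 0.17 on the log2 scale (adjusted p = 0.722).

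With FT671, CDKN1A rose further, from 6573, 6327 and 6756 counts in DMSO_NEUR to 15135, 14701 and 16942. All FT671_NEUR libraries lay above all others of the study (log2 fold change 1.25 ± 0.07, adjusted p = 4e-11). PLK3 went from 491, 564 and 525 to 1262, 1126 and 1246 counts, which also separates the groups (log2 fold change 1.20 ± 0.09, adjusted p = 2.27e-09). SERTAD1, whose protein binds the cell cycle kinase CDK4, had 310.2, 262 and 235 counts with DMSO and 544, 516 and 497 with FT671 (log2 fold change 0.95 ± 0.14, adjusted p = 1.14e-05). In neural differentiation the same gene had gone from 169, 133 and 143 to 259, 262 and 372, where replicate 3 is the high one. GADD45A, a growth arrest and DNA damage gene, had 1283, 1250.4 and 1343 counts with DMSO and 1769, 1719 and 1955 with FT671, again without overlap (log2 fold change 0.49 ± 0.08, adjusted p = 3.05e-05). BTG2 and ZMAT3, an RNA-binding zinc finger gene, rose as well, by 0.43 and 0.41 on the log2 scale. PLK2 fell instead: its counts were 7773, 8594 and 9122 with DMSO and 6396, 6473 and 6955 with FT671 (log2 fold change −0.36 ± 0.08, adjusted p = 0.000497), still far above UNDIF. FBXO22 was not called (log2 fold change −0.13, adjusted p = 0.118), although it was called lower with TMM scaling (adjusted p = 0.0362).

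**Figure D2:**
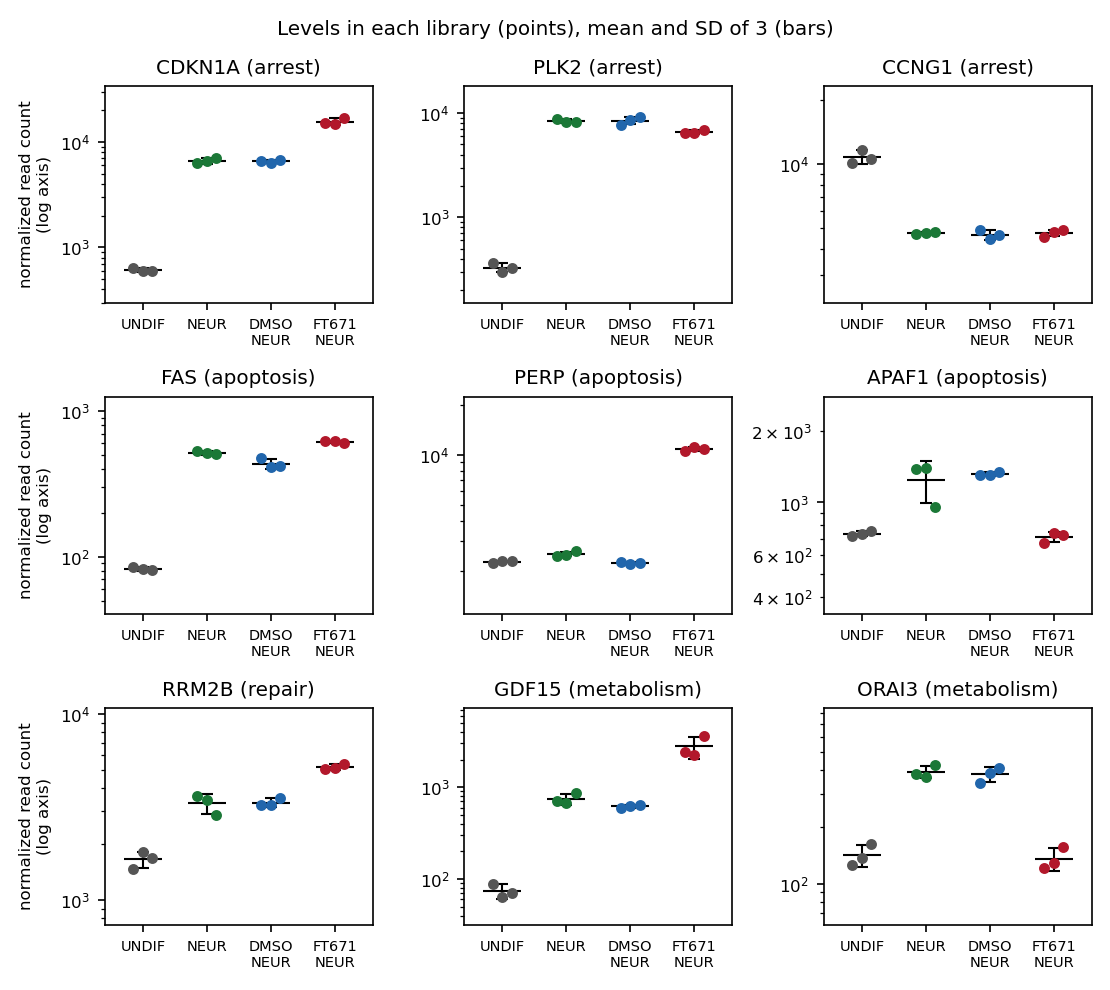
Normalized read counts (log axis) of 9 targets in each library, with points for libraries and bars for the mean and SD of 3. CDKN1A, RRM2B and GDF15 step up from UNDIF to the neural groups and again with FT671, PERP is highest in the FT671_NEUR points, APAF1 and ORAI3 overlap their UNDIF points with FT671 on the deposited scale, and NEUR replicate 3 is the low point for APAF1.

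Among the apoptosis genes, FAS and DRAM1 rose most in neural differentiation, followed by other receptor genes of the tumour necrosis factor family. FAS, the receptor of FAS ligand, had 85.2, 81.9 and 80.9 counts in UNDIF and 535, 513 and 507 in NEUR, with groups far apart (log2 fold change 2.63 ± 0.09, adjusted p = 5.99e-14). Exons of FAS overlap those of ACTA2 on the opposite strand in GENCODE v29, and it is not stated whether the counting used strand. ACTA2 itself went from 92.2 ± 13.5 to 1349.8 ± 112 counts in the same comparison, and its part in the FAS values was not tested. TNFRSF10B, which encodes the TRAIL receptor DR5, had 3063, 3015 and 3001 counts in UNDIF and 7301, 7457 and 6221 in NEUR (log2 fold change 1.20 ± 0.07, adjusted p = 5.34e-11), with replicate 3 the lowest of the NEUR libraries. Its exons overlap those of RHOBTB2 on the opposite strand, which went from 308 ± 18.3 to 836 ± 67.6 counts. EDA2R, a receptor of ectodysplasin, had 298, 273 and 248 counts and then 638, 699.6 and 517, so all NEUR libraries were above UNDIF (log2 fold change 1.17 ± 0.11, adjusted p = 4.11e-08). DRAM1, a lysosomal membrane gene that promotes autophagy, went from 303, 255 and 248 to 892, 916 and 918 (log2 fold change 1.76 ± 0.08, adjusted p = 3.18e-12).

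Genes of the mitochondrial route to cell death were higher as well. BBC3, which encodes PUMA, and BAX, which opens the outer mitochondrial membrane, had log2 fold changes of 1.00 and 0.91, and APAF1, the scaffold of the apoptosome, one of 0.73. NEUR replicate 3 was the lowest for APAF1, at 960.3 counts against 1386 and 1392, and without it the APAF1 change was 0.91. The same library was the highest for BBC3, at 631 counts against 477 and 499, and for BAX, at 4725 against 3626 and 3679. TP53INP1, a gene of autophagy and cell death, PHLDA3, an inhibitor of AKT, and CYFIP2, a subunit of the WAVE actin regulator, rose by 1.15, 0.76 and 0.50 on the log2 scale. Replicate 3 was the highest NEUR library for PHLDA3, at 1552 counts against 1125 and 1254, and the lowest for TP53INP1 and CYFIP2. Exons of CYFIP2 overlap those of ADAM19 on the opposite strand, which went from 1256 ± 119 to 3967 ± 430.2 counts, and the part of either overlapping gene was not tested. PERP, a membrane protein of desmosomes, was called at a small change of 0.15 (adjusted p = 0.021), which was lost with library totals as the scale (adjusted p = 0.854) and when only the groups compared were fitted (adjusted p = 0.0826). TM7SF3, a membrane protein gene, was not called, with an interval of −0.07 to 0.23.

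With FT671 the apoptosis genes went in both directions. PERP had 2254, 2187 and 2228 counts with DMSO and 10494, 11133 and 10877 with FT671, the largest rise among the targets in this comparison (log2 fold change 2.28 ± 0.06, adjusted p = 1.61e-15). The 8 epithelial marker genes moved with it, with summed counts of 10900 to 11874 with DMSO and 64773 to 72160 with FT671, and their part in the PERP value was not tested. TM7SF3, known to support survival under endoplasmic reticulum stress, went from 1541, 1434 and 1698 to 3609, 3736 and 3712 counts, with all FT671 libraries higher (log2 fold change 1.25 ± 0.07, adjusted p = 7.67e-11). PHLDA3 had 1208, 1204 and 1140.3 counts with DMSO and 2272, 2122 and 2293 with FT671 (log2 fold change 0.91 ± 0.10, adjusted p = 2.24e-07). FAS rose by 0.50 on the log2 scale, from 477, 414 and 419 to 619, 625 and 604 counts, while ACTA2 changed by −0.54 on the same scale.

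The 4 apoptosis genes that fell were APAF1, TNFRSF10B, CYFIP2 and BBC3. APAF1 had 1307, 1308 and 1348 counts with DMSO and 677, 741 and 732 with FT671, without overlap (log2 fold change −0.88 ± 0.11, adjusted p = 1.18e-06). TNFRSF10B fell from 7709.8, 7540.3 and 7725 to 4759, 4931 and 4691 counts (log2 fold change −0.68). CYFIP2 and BBC3 fell too, with log2 fold changes of −0.81 and −0.56. RHOBTB2 had 809 ± 41.8 counts with DMSO and 1005 ± 54.4 with FT671, and ADAM19 had 3911 ± 387 and 3459 ± 124. BAX, EDA2R, TP53INP1 and DRAM1 were not called, at −0.18, −0.20, −0.02 and 0.12. BAX and EDA2R were called lower with TMM scaling, at adjusted p of 0.0282 and 0.0439.

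**Figure D3:**
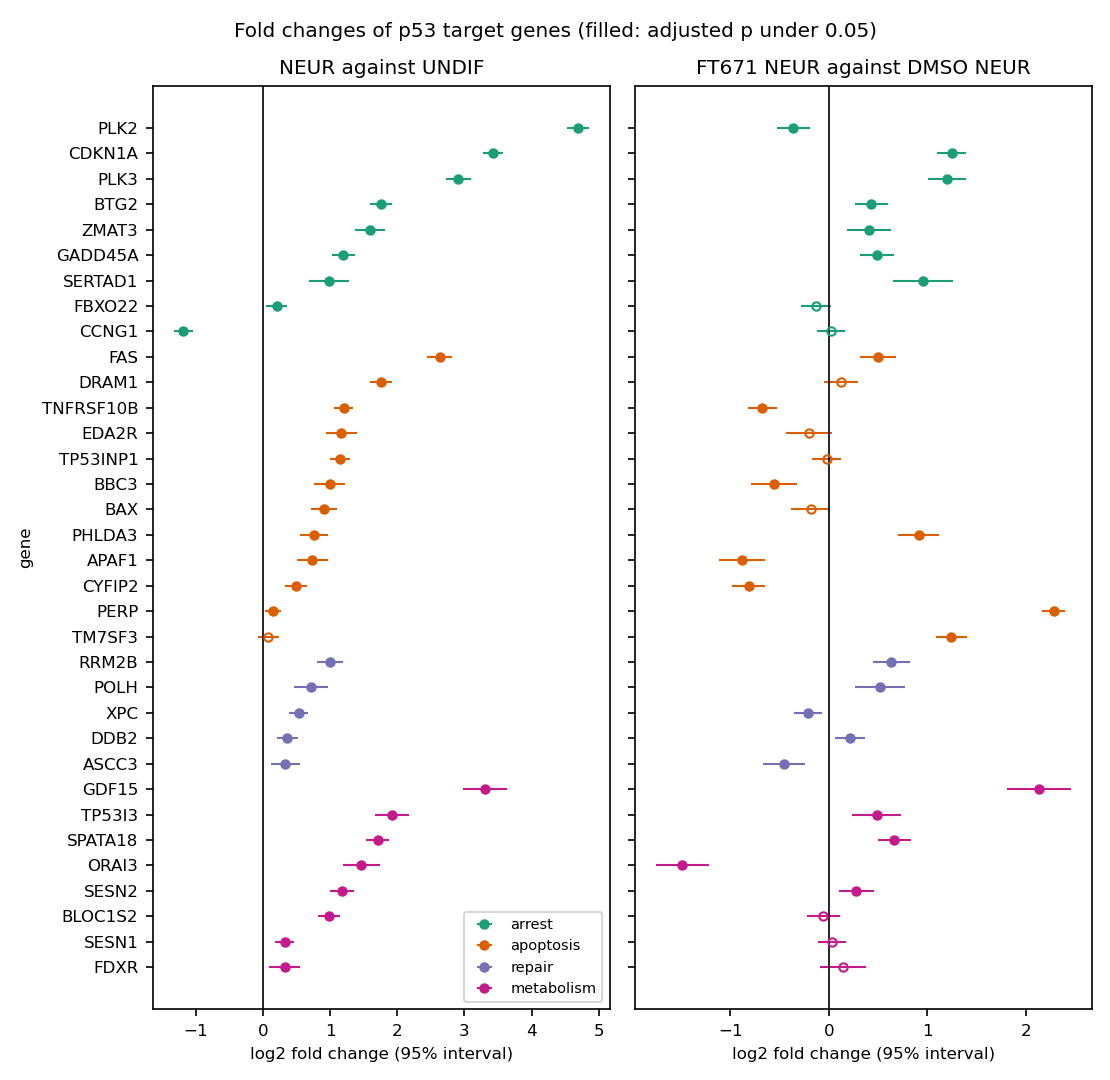
Log2 fold changes with 95% intervals for the 34 targets, in NEUR against UNDIF (left) and FT671_NEUR against DMSO_NEUR (right), coloured by role; filled points were called. On the left all filled points but CCNG1 lie right of 0, and on the right they lie on both sides, from −1.49 for ORAI3 to 2.28 for PERP.

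The repair genes all rose in neural differentiation, by less than the leading arrest genes. RRM2B, the p53-induced subunit of ribonucleotide reductase, had 1469.6, 1808 and 1683 counts in UNDIF and 3623, 3458 and 2855 in NEUR, where replicate 3 was the lowest (log2 fold change 1.00 ± 0.09, adjusted p = 2.18e-08). POLH, the polymerase that copies past ultraviolet damage, went from 312, 419 and 317 to 642, 599 and 477 counts (log2 fold change 0.71 ± 0.12, adjusted p = 3.48e-05). XPC, which detects damage in nucleotide excision repair, had 1475, 1444 and 1452 counts in UNDIF and 2106, 2219 and 1995 in NEUR (log2 fold change 0.53 ± 0.07, adjusted p = 1.36e-06). The NEUR libraries were higher for all 3 of these genes. DDB2, which recognizes ultraviolet damage and carried the exact consensus match printed above, went from 1285, 1300.3 and 1347 to 1565, 1673 and 1843 counts, a small rise without overlap (log2 fold change 0.37 ± 0.07, adjusted p = 0.000175). ASCC3, a helicase of alkylation repair, had 2743, 3249.7 and 2944 counts in UNDIF and 4204, 4171 and 3012 in NEUR. NEUR replicate 3 alone lay within the UNDIF range, and its log2 fold change was 0.34 with that library and 0.49 without it. The ASCC3 call was lost with library totals as the scale (adjusted p = 0.0742). POLH and XPC have exons that overlap GTPBP2 and LSM3 on the opposite strand, which went from 1271 ± 36.4 to 1185 ± 48.4 and from 999.7 ± 111 to 964 ± 119.7 counts.

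With FT671, RRM2B went from 3246, 3239.9 and 3554 to 5057, 5140.1 and 5392 counts, so every FT671 library was higher (log2 fold change 0.64 ± 0.09, adjusted p = 5.84e-06). POLH rose from 585, 583 and 630.3 to 896, 872 and 810.1 (log2 fold change 0.52 ± 0.12, adjusted p = 0.000781). ASCC3 fell from 3922, 3777 and 3955 to 2811, 2865 and 2801, again without overlap (log2 fold change −0.46 ± 0.10, adjusted p = 0.000569). The nucleotide excision repair genes moved little and in opposite directions. DDB2 had 1506, 1433 and 1553 counts with DMSO and 1702, 1838 and 1666 with FT671 (log2 fold change 0.21 ± 0.07, adjusted p = 0.0122), a call lost without DMSO_NEUR replicate 2 (adjusted p = 0.0565), without FT671_NEUR replicate 2 (adjusted p = 0.0661) and with library totals (adjusted p = 0.266). XPC had 2207, 2098 and 2143 counts with DMSO and 1969, 1881 and 1722 with FT671 (log2 fold change −0.21 ± 0.07, adjusted p = 0.00771), a call lost without FT671_NEUR replicate 3 (adjusted p = 0.0537). The overlapping genes moved in the same directions. GTPBP2, which overlaps POLH, had 1259 ± 140 counts with DMSO and 1519 ± 22.5 with FT671. LSM3, which overlaps XPC, had 955 ± 145 and 532 ± 42.7. Their part in the POLH and XPC values was not tested.

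Among the metabolism and stress genes, GDF15 led in neural differentiation. GDF15, a secreted stress cytokine, had 89.0, 63.0 and 70.7 counts in UNDIF and 704, 666 and 855 in NEUR, with replicate 3 the highest (log2 fold change 3.31 ± 0.16, adjusted p = 4.64e-12). TP53I3, an oxidoreductase gene also called PIG3, went from 424, 367 and 369 to 1270.2, 1456 and 1700.5 counts (log2 fold change 1.92 ± 0.12, adjusted p = 1.57e-10). SPATA18, which acts in mitochondrial quality control, had 184, 179 and 177 counts in UNDIF and 600.4, 620.3 and 549.9 in NEUR (log2 fold change 1.71 ± 0.08, adjusted p = 3.83e-12). In all 3 genes the lowest NEUR library was well above the highest UNDIF library. ORAI3, a subunit of calcium entry channels, went from 126, 136 and 162 to 380.4, 369 and 426 counts (log2 fold change 1.47 ± 0.13, adjusted p = 1.44e-08). The sestrin gene SESN2 and BLOC1S2, a subunit of lysosome-positioning complexes, rose by 1.18 and 0.98 on the log2 scale. The related SESN1 and FDXR, the mitochondrial ferredoxin reductase, rose by 0.33 and 0.33, and the FDXR call was lost without NEUR replicate 3, where its change was 0.16 (adjusted p = 0.0612), and with library totals (adjusted p = 0.136).

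With FT671, GDF15 had 2435, 2267 and 3647 counts, against 589, 629 and 640.0 with DMSO. FT671_NEUR replicate 3 was the highest, and the lowest FT671 library was still above every other library of the study (log2 fold change 2.13 ± 0.16, adjusted p = 1.43e-09). ORAI3 dropped from 343, 387 and 410.4 to 121, 128 and 157 counts, the largest fall among the targets (log2 fold change −1.49 ± 0.13, adjusted p = 1.21e-08). SPATA18 rose from 590.3, 549 and 573 to 903, 939.6 and 871 (log2 fold change 0.66 ± 0.08, adjusted p = 7.84e-07) and TP53I3 from 1439, 1119.7 and 1042 to 1663, 1787 and 1551 (log2 fold change 0.49 ± 0.12, adjusted p = 0.0013), neither with overlap. SESN2 rose by 0.28, a call lost with library totals (adjusted p = 0.081). SESN1, FDXR and BLOC1S2 were not called, with changes of 0.03, 0.14 and −0.06.

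NEUR against UNDIF and FT671_NEUR against DMSO_NEUR share no library, so their calls can be set side by side. Of the targets, 16 were higher in both, which 17.2% of all genes were. CDKN1A, PLK3, GDF15, RRM2B, SPATA18 and FAS were among these. PLK2, BBC3, TNFRSF10B, APAF1, CYFIP2, XPC, ASCC3 and ORAI3, 8 in all, were higher in neural differentiation and lower with FT671, a pattern held by 13.5% of all genes. The 8 genes that were higher in neural differentiation and not called with FT671, a pattern held by 9.6% of all genes, were FBXO22, BAX, EDA2R, DRAM1, TP53INP1, SESN1, FDXR and BLOC1S2. No target was lower in both, which 16.5% of all genes were, but only CCNG1 was lower in neural differentiation. With 32 of the 34 targets higher in the first comparison, these joint counts largely repeat the calls of the second.

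**Figure D4:**
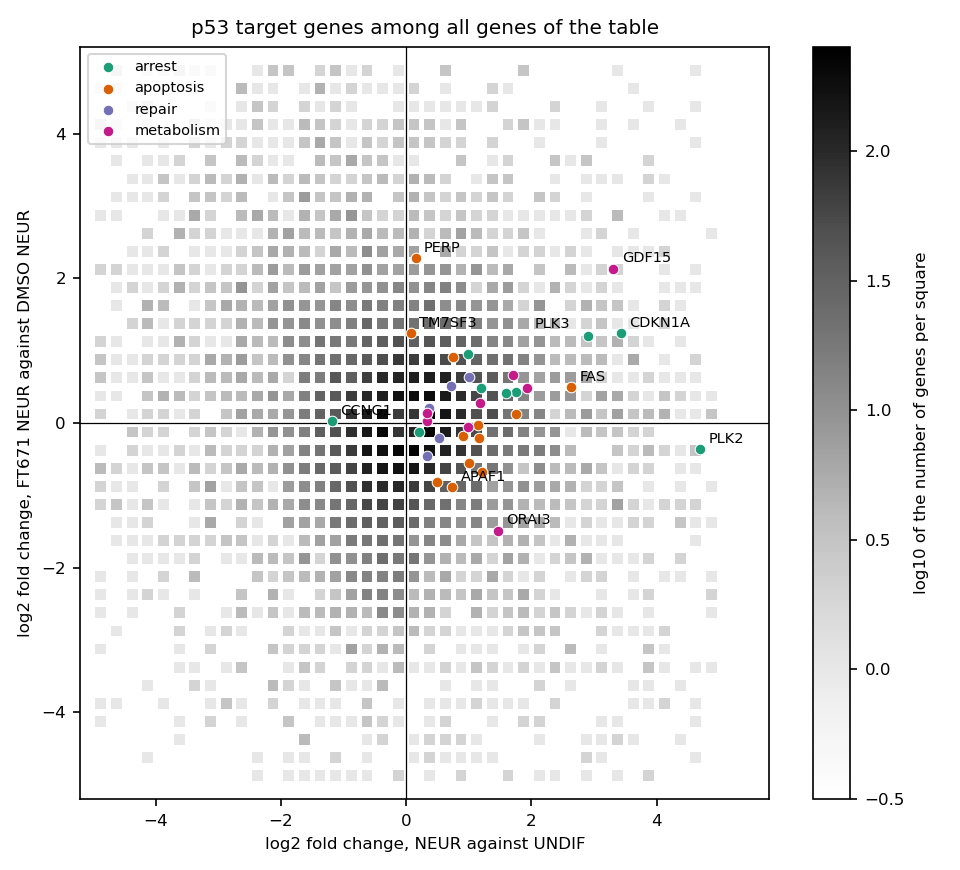
Log2 fold changes of the 34 targets in NEUR against UNDIF (horizontal) and FT671_NEUR against DMSO_NEUR (vertical), coloured by role, over the 12847 genes within 5 log2 units on both axes (grey squares of 0.25, darker for more genes). The targets lie right of 0 except CCNG1, and spread above and below 0 on the vertical axis, with GDF15, CDKN1A and PLK3 at the upper right and ORAI3 at the lower right.

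DMSO alone was not seen to move the targets. In DMSO_NEUR against NEUR, 0 of 34 were called by limma, edgeR or DESeq2, with 0.00751% of all genes called higher and 0.391% lower by limma. At an unadjusted p under 0.05 there were 6, all lower: FAS, PERP, DDB2, TP53I3, FDXR and BLOC1S2, with log2 fold changes of −0.25, −0.18, −0.18, −0.30, −0.25 and −0.19. The share of all genes at that unadjusted threshold was not counted, so these 6 have no background beside them. The intervals of all 34 lay within −0.58 and 0.34 on the log2 scale, and that of CDKN1A was −0.16 to 0.13. With DMSO_NEUR in place of NEUR against UNDIF, 30 targets were higher and 1 lower, beside 5208 of all genes higher and 5452 lower.

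Set directly against UNDIF, which shares its libraries with the comparisons above, FT671_NEUR had 27 targets higher, 2 lower and 5 not called, with 44% of all genes called higher and 43.9% lower. With library totals as the scale the counts were 23 higher and 6 lower, beside 4789 of all genes higher and 6750 lower at that scale. CDKN1A was 25.3-fold, GDF15 36.5-fold and PLK2 20.1-fold above UNDIF. CCNG1 and CYFIP2 were the lower genes, at −1.19 and −0.28 on the log2 scale. APAF1, ASCC3 and ORAI3, which had fallen with FT671, differed from UNDIF by −0.04, −0.07 and −0.06, with intervals of −0.27 to 0.19, −0.29 to 0.14 and −0.33 to 0.21. With library totals all 3 were called lower than UNDIF, at −0.31, −0.34 and −0.33 (adjusted p = 0.00996, 0.00353 and 0.0247). FBXO22 and FDXR were the others not called, at 0.04 and 0.22.

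Genes that control p53, together with its relative TP73, were taken as a separate list. MDM2, both the ubiquitin ligase of p53 and one of its targets, went from 1034 ± 34.3 to 3041 ± 244 counts in neural differentiation (log2 fold change 1.55). With FT671 it changed by 0.19 (adjusted p = 0.0157), from 2943 ± 90.6 to 3366 ± 124, a call lost with TMM scaling (adjusted p = 0.0596) and library totals (adjusted p = 0.315). USP7 mRNA was not called in neural differentiation, with an interval of −0.15 to 0.10 (lower with library totals, adjusted p = 0.0157), and fell with FT671 (log2 fold change −0.58 ± 0.06, adjusted p = 9.51e-08). Of the 18 genes of this list described here, 2 were higher and 9 lower in neural differentiation, beside 40.4% and 41.6% of all genes, with a median log2 fold change of −0.18. With FT671, 2 were higher and 14 lower, beside 40.2% and 39.7% of all genes, with a median of −0.48. Besides MDM2, the higher gene was TP73, at 8.43 ± 1.99 counts with DMSO and 75.1 ± 6.91 with FT671. TP73 had 170 ± 8.34 counts in UNDIF and 13.2 ± 11.0 in NEUR. With library totals the split in neural differentiation was 1 higher and 13 lower, beside 4455 of all genes higher and 6281 lower. The protein levels and activity of p53 were not measured by these libraries.

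A second list of p53 targets, 32 genes in the table with MDM2 among them, gave 24 higher and 5 lower in neural differentiation (median log2 fold change 0.56) and 21 higher and 9 lower with FT671 (median 0.57). Of all genes, 40.4% were higher and 41.6% lower in neural differentiation (median −0.029), and 40.2% and 39.7% with FT671 (median 0.010). The largest changes of this list with FT671 were in TLR3, a receptor of double-stranded RNA, and SFN, the epithelial 14-3-3 sigma gene that holds cells in G2. In neural differentiation TLR3 had fallen from 59.4 ± 1.88 counts in UNDIF to 5.58 ± 3.44 in NEUR (log2 fold change −3.36, adjusted p = 8.91e-08), while SFN had risen (log2 fold change 2.41). TLR3 had 7.46 ± 1.52 counts with DMSO and 134 ± 15.9 with FT671 (log2 fold change 4.00 ± 0.34, adjusted p = 9.54e-09), and SFN 413 ± 28.3 and 4605 ± 166 (log2 fold change 3.48 ± 0.16, adjusted p = 2.64e-12), beside the rise of the epithelial markers. SFN was also the only gene of this list called in DMSO_NEUR against NEUR, lower by a log2 fold change of −0.83 (adjusted p = 0.0269), and without NEUR replicate 3 that call was lost (adjusted p = 0.0564).

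Cell cycle genes that p21 represses through the DREAM complex were taken as a further list, all 32 of them in the table. In neural differentiation 2 were higher and 20 lower, with a median log2 fold change of −0.38, beside 40.4% and 41.6% of all genes. With FT671 all 32 were lower, with a median of −2.10 and a range of −3.11 to −1.29, beside 39.7% of all genes called lower. CENPF, a kinetochore gene, went from 10739.5 ± 325 counts with DMSO to 1253 ± 210.2 (log2 fold change −3.11 ± 0.13, adjusted p = 1.03e-12), and BUB1B, a spindle checkpoint kinase gene, from 2399 ± 42.4 to 309.5 ± 39.6 (log2 fold change −2.96 ± 0.09, adjusted p = 1.74e-14). The neural progenitor markers fell in the same libraries, and their part in these values was not tested.

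**Figure D5:**
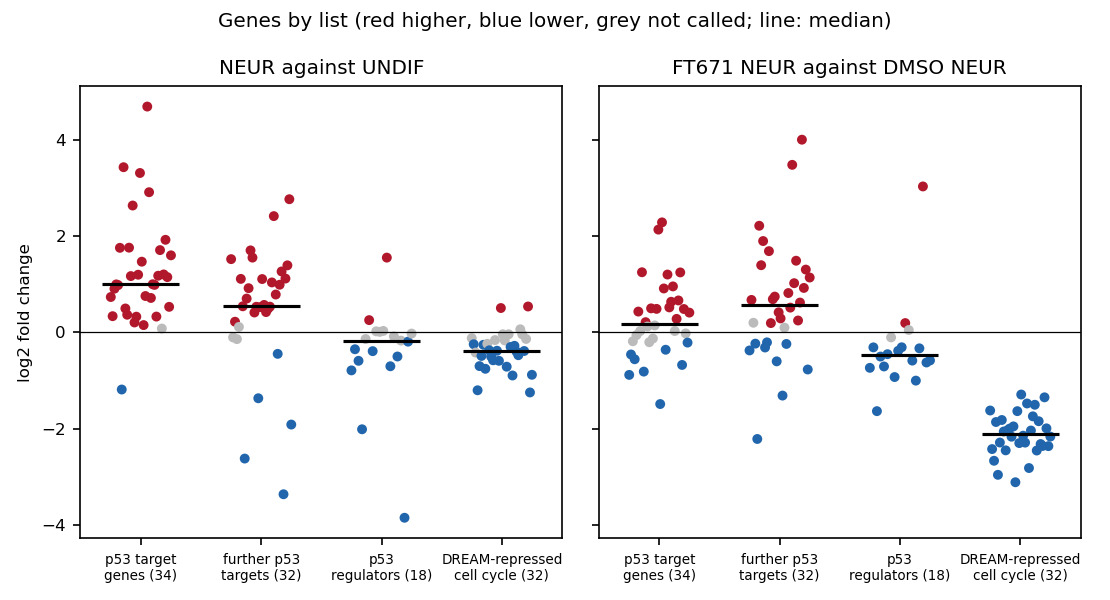
Log2 fold changes by list in both comparisons, with red for higher, blue for lower and grey for not called, and a line at each median. The second list of targets lies mostly above 0 in both panels, the p53 regulators mostly at or below 0, and the 32 DREAM-repressed cell cycle genes all below 0 with FT671.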

How the data were processed

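The submitters' processing notes name STAR, HTSeq, DESeq2 and R 4.3.1 with the hg19 build; annotation, strand and the choice of genes are not given in the sources used here. The deposited signal values were found to be read counts of a gene over a size factor of its library, with 1 added, since 100% of values minus 1 were whole multiples of 1 step per library within a tolerance of 0.001. The normalized read count here is that value minus 1. The authors also deposited adjusted p-values of UNDIF against NEUR; in the authors' deposited table they were under 0.05 for 33 of 34 targets, all of them called here. The other 32 of 47 columns were not used. The sheet's title speaks of a USP7 heterozygote, against the wild-type labels, which were followed. Its columns name ESC and NSC where the labels read UNDIF and NEUR, and were matched by that meaning, by DMSO or FT671 and by replicate number.

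limma 3.58.1 (R 4.3.3) was run on log2 of the normalized count plus 1, in 1 model with a mean for each of 4 groups over 12 libraries, with variances moderated along expression. All 13310 genes were fitted, and p-values adjusted over them within each of 4 comparisons. The procedure was tested on simulated data. edgeR 4.0.16 and DESeq2 1.42.0 on the recovered reads, TMM scaling, library totals, other pseudocounts, a minimum mean, only the groups compared, a replicate block and each library left out were alternatives; for the other gene lists and the regulator genes, the scalings and the omission of NEUR replicate 3 were chosen after seeing the data. A gene of the regulator list is not reported here. The members and lists were chosen with earlier results of these data known. Full values were given for up to 4 called genes per role with the largest change and for CDKN1A; CCNG1, the single lower gene, and the values of further genes at the edges of calls were added after their values were seen. Exons of 16 of the 34 targets overlap another gene in GENCODE v29, and of 9 a protein-coding one. Libraries with the same replicate number were not found to be paired.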

Additional observations from a re-analysis of the deposited data

How the results depend on the processing

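Over the 4 comparisons and all alternatives, 2173 of the targets' values kept their side of the threshold and, where called, their direction. Of the others, 17 passed the threshold newly, 18 no longer passed it and 2 reversed. Direction was not compared for values called in neither setting. FBXO22 in FT671_NEUR against UNDIF reversed to −0.23 with library totals (adjusted p = 0.00775), and PERP in neural differentiation to −0.028 with DMSO_NEUR in place of NEUR (adjusted p = 0.657). Library totals shifted the median log2 fold change of all genes by −0.14 in NEUR against UNDIF, −0.12 in FT671_NEUR against DMSO_NEUR and −0.27 in FT671_NEUR against UNDIF, and in the last raised the count of lower targets from 2 to 6. TMM scaling and edgeR gave 17 higher and 11 lower targets with FT671, and DESeq2 17 and 8. Of all genes, TMM scaling called 5067 higher and 5534 lower, edgeR 5090 and 5538, and DESeq2 5326 and 5279. Leaving out each library in turn gave 32 to 33 called targets in NEUR against UNDIF, 24 to 26 in FT671_NEUR against DMSO_NEUR, 29 in FT671_NEUR against UNDIF and 0 in DMSO_NEUR against NEUR. With the replicate block the counts were 32 higher and 1 lower in NEUR against UNDIF and 17 and 8 with FT671, as without it; same-numbered libraries correlated at −0.172 to 0.069 in their deviations from the group means.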
